A study of Drosophila melanogaster with 6 samples.

Results

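The genes of Polycomb group, Trithorax group and chromatin remodelling proteins were examined for DNA marked by the microproteins Simba1 and Simba2 in Drosophila neural stem cells. The group was taken by name and held 38 of the 17684 genes on the 6 chromosome arms: 18 Polycomb genes, 7 Trithorax genes and 13 remodeller genes. A gene was counted as marked when a deposited peak overlapped its span or the 1 kb beyond either end. In DamID, a protein fused to the bacterial adenine methylase Dam leaves methyl groups on nearby GATC sequences, and the methylated DNA is cut out with DpnI, amplified and sequenced. The 3 groups, Dam control, Dam-Simba1 and Dam-Simba2, each had 1 library in each of 2 batches, and the data are the 4 lists of peaks called for the fusion libraries. In all groups the UAS construct was driven by grh-Gal4 under tub-Gal80ts, a temperature-sensitive repressor of Gal4. Embryos were collected over 4 h, held at 18 °C for 44 h and then at 29 °C for 24 h. DNA came from larval brains in which the methylase reports on the cells with grh-Gal4 activity. Peak lists hold no expression values, so the labelled cell type could not be checked against markers.

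Polycomb proteins keep developmental genes silent, and Trithorax proteins keep them active, through cell divisions. Polycomb proteins work as the complexes PRC1, which ubiquitinates histones and compacts chromatin, PRC2, which methylates a histone tail, PhoRC, which binds DNA, and PR-DUB, which removes ubiquitin. Trithorax proteins include histone methyltransferases, and the remodellers use ATP to move or exchange nucleosomes. In neural stem cells of the fly these proteins are known for roles in the control of self-renewal and of the genes that are silenced or opened as progeny differentiate. The peaks described here lie at the genes that encode these proteins, not at the sites the proteins bind.

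Depth after duplicate filtering was 1069703 to 1506081 tags in the fusion libraries and 868080 (batch 1) and 1321104 tags (batch 2) in the Dam controls. The lists held 17254 to 35237 peaks, the longest being Simba2 batch 2. Each list had been called by the authors against the Dam library of its own batch, so Simba1 and Simba2 of a batch share a control. The Simba1 batch 2 list stood apart from the others: of the 7272 merged regions found in exactly 3 lists, 60.7% lacked it. Counts of genes marked in every library are therefore given with and without that library. Merged regions in all lists were counted with it alone. The fold enrichment over the Dam control and the q value of a peak were taken as the authors' peak caller MACS gave them, and serve to describe and rank peaks within a list. The q limit in that run was 1, so lists include weak peaks. The best peak of a gene is the peak with the highest -log10 q.

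A peak was present at 29 of the 38 genes in Simba1 batch 1, 22 in Simba1 batch 2, 29 in Simba2 batch 1 and all 38 in Simba2 batch 2. Over all genes the shares were 51.1%, 46.6%, 58.9% and 77.4% in the same order. The 38 genes are long, with a median span of 7.35 kb against 1.71 kb over all genes, and long genes collect more peaks. Among the 200 genes nearest in span to each, the mean shares were 69.6%, 65.2%, 77.3% and 91.5%, against 76.3%, 57.9%, 76.3% and 100% of the chromatin genes. By this measure the group lay above genes of like span in Simba1 batch 1 and Simba2 batch 2 and below them in Simba1 batch 2 and, by 1 percentage point, Simba2 batch 1.

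**Figure D1:**
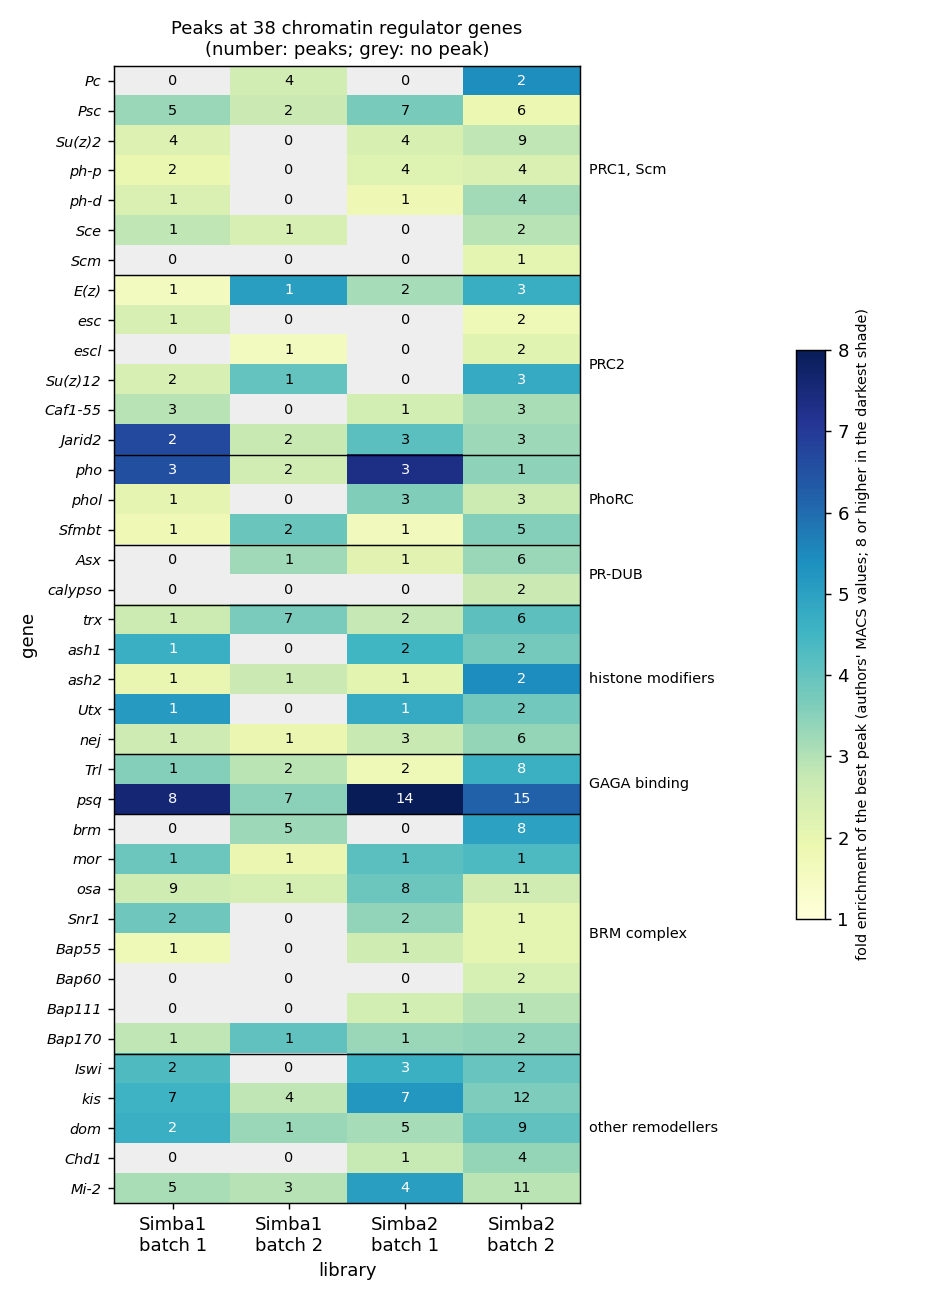
Peaks at the 38 chromatin genes (rows, grouped by complex) in the 4 libraries (columns). The number in a cell is the count of peaks on the gene span plus 1 kb each side, the colour the authors' fold enrichment of the best peak, and grey a gene with no peak. psq, kis, osa and Mi-2 held the most peaks, and the Simba2 batch 2 column has no grey cell.

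Peaks in both batches were found at 18 genes for Simba1 (28.8% of all genes were so called) and at 29 genes for Simba2 (51.3% of all genes). Genes of like span would give 19.0 and 27.8. All 4 libraries had a peak at 16 genes, where 24.1% of all genes were called and genes of like span would give 17.4. By class these were 5 of 18 Polycomb genes (6.80 by span), 5 of 7 Trithorax genes (4.34) and 6 of 13 remodeller genes (6.20). The counts are descriptions without a test, and each lies within 2 genes of the figure set by span. With Simba1 batch 2 set aside, 26 genes had a peak in each remaining library, 10 of them Polycomb, 7 Trithorax and 9 remodeller genes. That library was picked out from these same lists, and the class counts have no figure by span beside them. The 26 are the 16 genes above (24.1% of all genes, 17.4 by span) and 10 that lacked a peak in Simba1 batch 2 alone. The latter pattern was found at 15.6% of all genes (5.94 by span). Those 10 genes were Su(z)2, ph-p, ph-d, Caf1-55, phol, Utx, ash1, Iswi, Snr1 and Bap55. Scm, calypso and Bap60 had a peak in Simba2 batch 2 alone (12.6% of all genes; 2.69 by span).

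Peaks with q of 0.05 or lower were present at 20 of the genes in the first Simba1 batch (38.7% of all genes) and 15 in the other (26.8%). For Simba2 they were present at 24 genes in batch 1 (43.0% of all genes) and 35 in batch 2 (62.7%). Genes of like span would give 21.4, 15.98, 23.5 and 30.7, so the excess was in Simba2 batch 2. Both Simba1 libraries had such a peak at 9 genes (14.7% of all genes; 10.9 by span) and both Simba2 libraries at 24 (34.5% of all genes; 20.8 by span). Remodeller genes made up 11 of these 24, where their spans would give 7.29. This class was singled out after the values were seen, the other classes are not given, and no test was run. Its count in all 4 libraries with all listed peaks, given above, was close to that set by span. All 4 libraries had one at 8 genes (11.5% of all genes; 9.22 by span): Psc, pho, psq, Bap170, dom, kis, Mi-2 and osa. Scm, esc and Bap60 had none in any library. At q of 0.001 or lower, psq was the 1 gene called in both Simba1 libraries (3.73% of all genes) and in all 4 (2.4%), and 11 genes were called in both Simba2 libraries (15.4%).

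**Figure D2:**
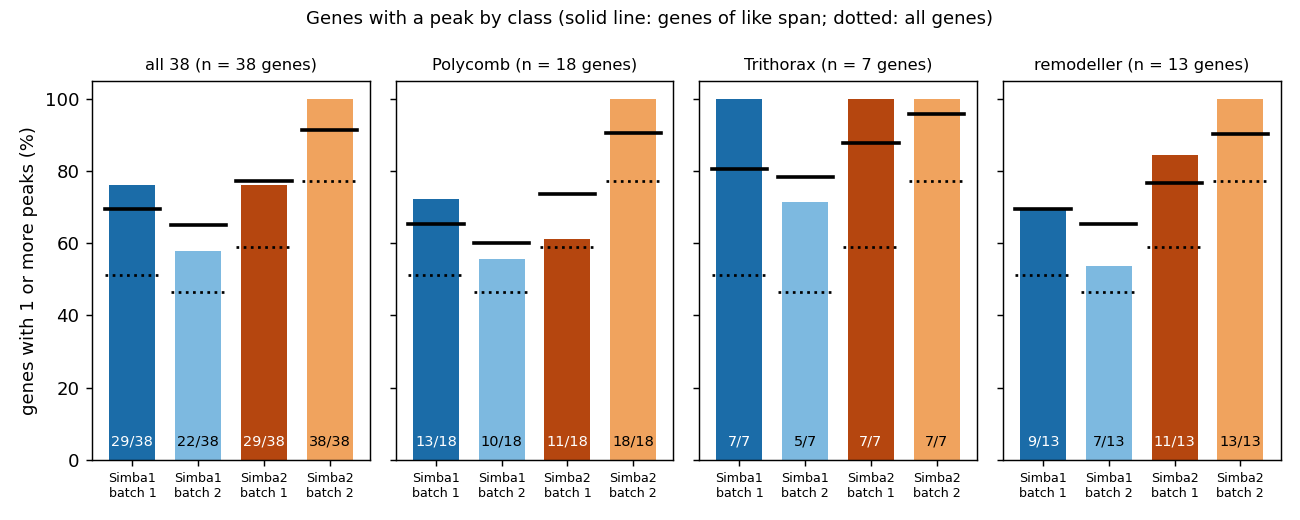
Percent of genes with 1 or more peaks in each library, for all 38 genes and by class. Bars give the chromatin genes with their counts, solid lines the mean share of the 200 genes nearest in span to each, and dotted lines the share of all genes. All 7 Trithorax genes had a peak in every library except Simba1 batch 2, where 5 did.

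The comparison of both proteins asked whether Simba2 marked these genes more often than Simba1. The mean share with a peak was 88.2% ± 16.7 for Simba2 and 67.1% ± 13.03 for Simba1 (SD, n = 2), a difference of 21.1 percentage points (exact two-sided permutation p = 0.667). Within batches the difference was 0 points in batch 1 and 42.1 in batch 2. It was 9.21 points without Simba2 batch 2, 11.8 without Simba1 batch 2 and 32.9 without Simba2 batch 1, so its size depended on which library was included. Peaks per 100 kb of these genes numbered 14.5 and 10.4 in Simba1 (batches 1 and 2) and 18.1 and 34.0 in Simba2, a mean difference of 13.6 with no overlap between the proteins (exact two-sided permutation p = 0.333, n = 2). That p is the smallest that 2 libraries against 2 can give, and nothing in the labels says how far the batches are biologically separate. The permutations do not use the pairing of Simba1 with Simba2 by batch, for which an exact sign-flip test is given in the closing section. With lists cut to equal length the densities were 14.5, 8.96, 14.9 and 20.4, which nearly closed the gap in batch 1 and lowered the mean difference to 5.90. Without Simba2 batch 2 the difference was 5.70, and without Simba2 batch 1 it was 21.6. On the full lists, density over genes of like span was 13.1, 13.6, 17.0 and 27.7 peaks per 100 kb in the same order, so Simba2 also led Simba1 at those genes. Relative to them the chromatin genes were denser in Simba2 batch 2, close in both batch 1 libraries and sparser in Simba1 batch 2.

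Among PRC1 genes, Psc, which encodes a RING-finger subunit (2R, 12965997 to 12980994), was the 1 of 7 with a peak in all 4 libraries. The Simba1 libraries listed 5 and 2 peaks there and the Simba2 libraries 7 and 6, and its best peaks were 3.30- and 2.65-fold, then 3.72- and 1.90-fold. The 4 best peaks lay apart inside the gene, between 4.11 and 6.90 kb from its lower end. Its neighbour and relative Su(z)2 (2R, 12996501 to 13007911) had 4, 0, 4 and 9 peaks (Simba1 batches 1 and 2, then Simba2 batches 1 and 2, the order used below). Psc held 3 regions and Su(z)2 held 4 that were in every list except Simba1 batch 2.

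The adjacent genes ph-p and ph-d on the X chromosome encode Polyhomeotic proteins and arose as near copies. How reads that match both were placed is not given in the sources used here, so their peaks are uncertain. At ph-p the best peaks of the 3 libraries other than Simba1 batch 2 coincided about 1 kb inside its upper end (X, 2137065 to 2137497), at 1.96-fold in Simba1 batch 1, 2.23-fold in Simba2 batch 1 and 2.31-fold in Simba2 batch 2. The pileup of extended reads at these summits was 77.2, 74.7 and 92.0. ph-d had 1, 0, 1 and 4 peaks.

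Pc, the founding gene of the group and a reader of methylated histones (3L, 21306138 to 21318020), was marked in batch 2 alone. It held 4 peaks in Simba1 batch 2, none with q of 0.05 or lower, and 2 in Simba2 batch 2 at 5.42- and 4.11-fold. No peak was listed in either batch 1 library. The 2 Simba2 peaks each overlapped a Simba1 batch 2 peak, and both libraries were called against the same Dam control. Sce, which encodes the histone ubiquitin ligase, had 1, 1, 0 and 2 peaks, and Scm, a PRC1-associated gene, had 1 peak in Simba2 batch 2 alone (2.07-fold, above the q limit of 0.05).

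In PRC2, E(z), the gene of the histone methyltransferase (3L, 10634575 to 10638130), carried a region in the middle of the gene that was in all 4 lists (10636057 to 10636720). There the enrichment was 1.57-fold in Simba1 batch 1, 5.07-fold in Simba1 batch 2, 2.74-fold in Simba2 batch 1 and 2.24-fold in Simba2 batch 2. Simba1 batch 2 was the highest of the 4, Simba1 batch 1 did not reach q of 0.05, and q was 0.05 or lower in the other 3. A second site just below the gene, also within reach of CG34001 and hay, was listed in both Simba2 libraries (3.13- and 4.69-fold) and in neither Simba1 library.

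Jarid2, which encodes a PRC2 accessory protein (3L, 9477038 to 9486530), carried 2 peaks in each Simba1 library and 3 in each Simba2 library. Its best peaks, 6.67- and 2.71-fold for Simba1 and 4.12- and 3.26-fold for Simba2, lay at 4 different places. The site at its upper end, shared with pall (9485903 to 9486690), was 6.67-fold in Simba1 batch 1, 3.29-fold in Simba2 batch 1 and 2.24-fold in Simba2 batch 2. Su(z)12, the gene of a core subunit, had 2, 1, 0 and 3 peaks, and Caf1-55, a histone chaperone gene, 3, 0, 1 and 3. The paralogous genes esc and escl, which encode the subunit that binds methylated histones, had 1, 0, 0 and 2 peaks and 0, 1, 0 and 2 peaks. The escl peak common to both batch 2 libraries also reached zuc and dgt2.

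pho, a DNA-binding subunit gene of PhoRC, ranked highest among the Polycomb genes with peaks in all 4 libraries. At pho, on chromosome 4 (1172469 to 1181628), the best peaks were 6.54- and 2.52-fold for Simba1 (batches 1 and 2) and 7.34- and 3.44-fold for Simba2. In 3 libraries the best peak covered the same place at the upper end of the gene (1180844 to 1182055), where Simba1 batch 2 had none. Within their lists these 3 peaks stood at the 98.8, 99.4 and 97.6 percentiles of -log10 q. Its relative phol had 1, 0, 3 and 3 peaks, with the upper end of the gene marked in the same 3 libraries. Sfmbt, which encodes a PhoRC subunit that binds methylated histones, had 1, 2, 1 and 5 peaks and a region in all 4 lists across its lower end and Sirt1 (2L, 13169015 to 13169741). That region was weak, at 1.79-, 1.85-, 1.63- and 2.48-fold, with q of 0.05 or lower in 1 library.

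Both PR-DUB genes had most of their peaks in Simba2 batch 2. Asx, which encodes the cofactor, had 0, 1, 1 and 6 peaks, and calypso, which encodes the deubiquitinase, had 2 peaks in Simba2 batch 2 and none elsewhere.

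Of the Trithorax histone-modifier genes, Utx and ash1 each had their best peaks at the same site in the 3 libraries other than Simba1 batch 2. At Utx, a histone demethylase gene, the site lay 1.13 kb below the gene (2L, 10270865 to 10271518) and was 5.13-fold in Simba1 batch 1, 4.77-fold in Simba2 batch 1 and 3.80-fold in Simba2 batch 2. It also reached CG4957, Mulk and trk, and cannot be assigned to Utx alone. At ash1, a histone methyltransferase gene (3L, 19590773 to 19598755), the site lay inside the gene and reached no other gene (19593172 to 19593946), at 4.66-, 4.48- and 3.78-fold. Simba1 batch 2 listed no peak at either gene.

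ash2, which encodes a cofactor of histone methyltransferases (3R, 24650125 to 24653376), was the 1 gene of 38 whose best peaks of all 4 libraries shared bases. The share of all genes with this pattern was not counted, and Etl1, a partner gene outside the group, also had it. At ash2 the common stretch of 273 bp (24649714 to 24649986) lay just below the lower end of the gene and also belongs to puf. The enrichment was 1.99-fold in Simba1 batch 1, 2.66-fold in Simba1 batch 2, 2.11-fold in Simba2 batch 1 and 5.43-fold in Simba2 batch 2, and the last alone had q of 0.05 or lower. trx, the founding Trithorax gene and a histone methyltransferase gene, had 1, 7, 2 and 6 peaks, with more in batch 2 of both proteins. Its highest peak was 4.11-fold in Simba2 batch 2, 3.63 kb inside the gene, where Simba1 batch 2 had a 3.55-fold peak. nej, the gene of the acetyltransferase CBP, had 1, 1, 3 and 6 peaks, and both Simba2 libraries had their best peak 6.97 kb inside it (2.72- and 3.37-fold).

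psq led the group by the mean percentile of its best peaks (97.7). It encodes Pipsqueak, which like the GAGA factor, the product of Trl, binds GAGA sequences and works with both Polycomb and Trithorax proteins. With 59.4 kb it is the longest of the 38 genes (2R, 10557888 to 10617280), and its peaks numbered 8, 7, 14 and 15 in the same library order. Its best peaks were 7.59- and 3.46-fold for Simba1 and 10.1- and 6.19-fold for Simba2, with -log10 q of 12.99, 3.18, 16.1 and 10.5.

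The best psq peaks of both Simba1 batches lay at the same site (10605219 to 10605688), at which Simba2 batch 2 was 3.60-fold and Simba2 batch 1 had no peak. The best Simba2 batch 1 peak lay at lower coordinates, in a region of all 4 lists (10601992 to 10603129) that was 8.27-fold in Simba1 batch 1, 10.1-fold in Simba2 batch 1, 2.19-fold in Simba2 batch 2 and 1.51-fold in Simba1 batch 2. Both batch 1 libraries were high there and both batch 2 libraries low, and the libraries of a batch share a Dam control. Trl held 1, 2, 2 and 8 peaks, and its best peaks lay at 4 different places.

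**Figure D3:**
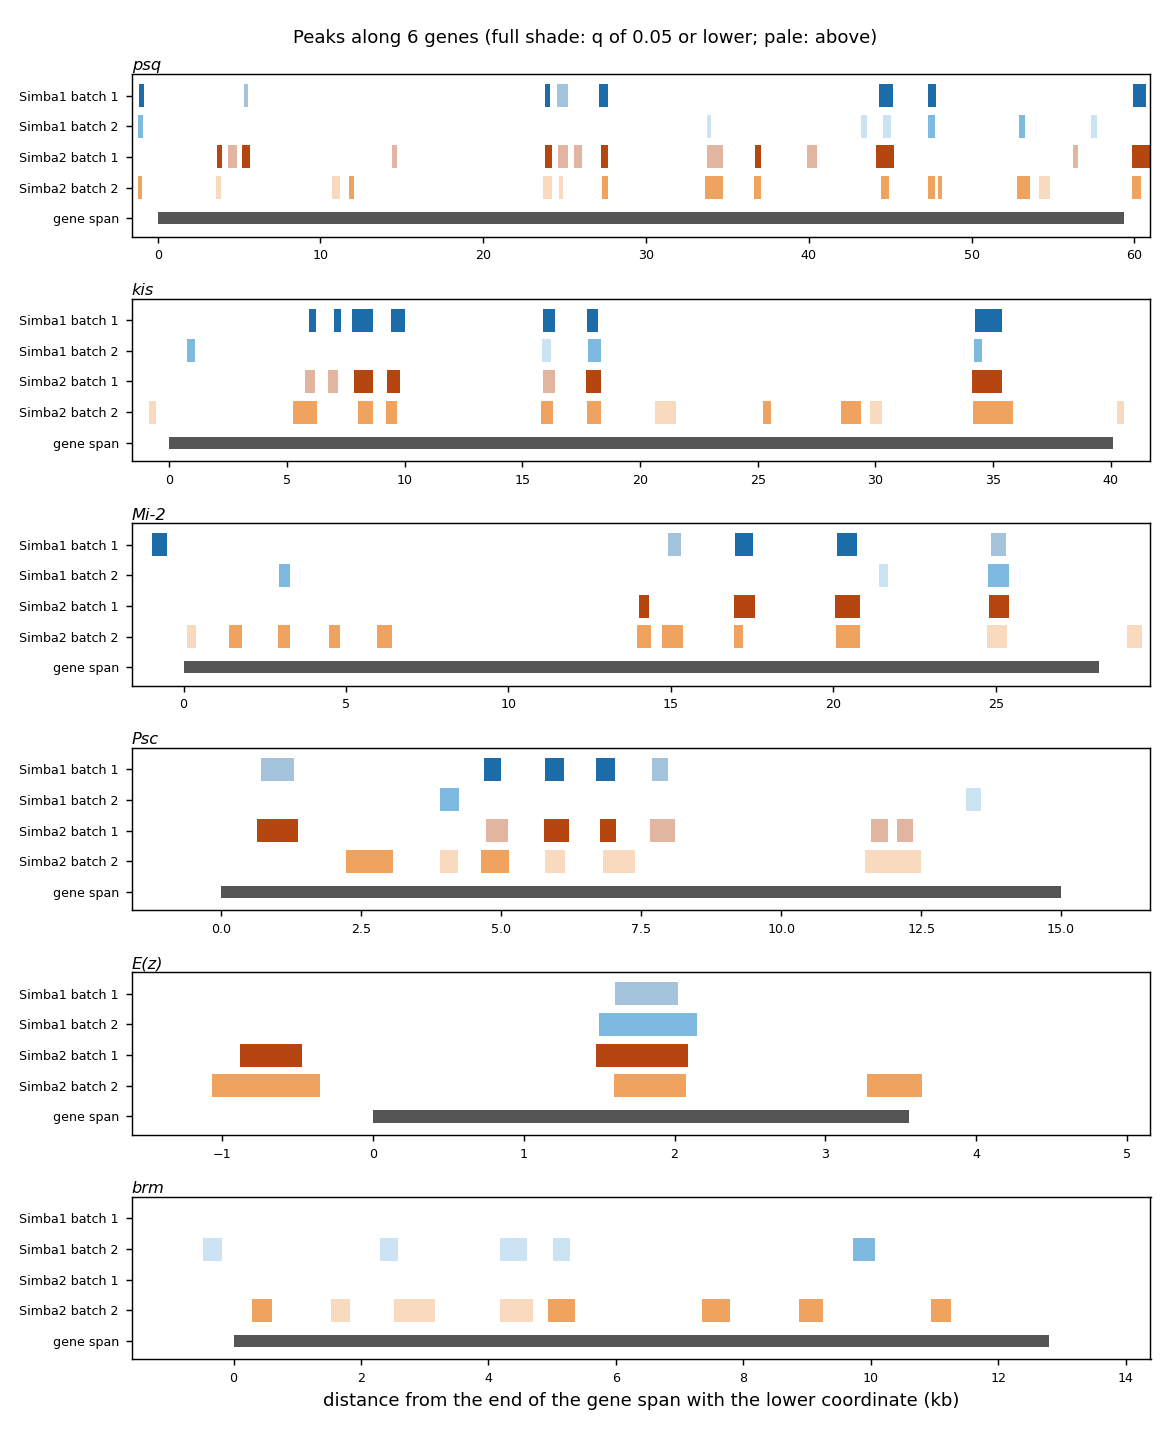
Peaks along psq, kis, Mi-2, Psc, E(z) and brm, as distance in kb from the end of the gene span with the lower coordinate. Each row is a library, each box a peak at its true width, pale boxes have q above 0.05, and the grey bar is the gene span. kis carries 3 stacks of boxes with all 4 libraries, E(z) has 1 in the middle of the gene, and brm has boxes in batch 2 rows alone.

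The BRM complex, the fly SWI/SNF remodeller, had 3 of its 8 genes marked in all 4 libraries: osa, mor and Bap170. osa, which encodes a signature subunit (3R, 17687818 to 17718350), held 9, 1, 8 and 11 peaks with best folds of 2.57, 2.44, 3.89 and 2.55. Simba1 batch 2 was the low library, and 3 neighbouring regions inside the gene were in the other 3 lists. mor, a scaffold subunit gene (3R, 15968134 to 15972913), had 1 peak in each library, but at opposite ends by batch. The batch 1 peaks lay at its upper end next to Hel89B (3.90-fold for Simba1 and 4.12-fold for Simba2), and the batch 2 peaks at its lower end next to Rbf2 (1.92- and 4.31-fold).

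Bap170 (2R, 6636512 to 6642358) had best peaks of 2.85-, 4.04-, 3.30- and 3.38-fold, and those of both Simba1 libraries shared bases at its upper end, next to Fmo-2. The same region also held a weaker Simba2 batch 2 peak (1.79-fold, q = 0.438). brm, the gene of the ATPase (3L, 15970082 to 15982869), had no peak in batch 1, but 5 peaks in Simba1 batch 2 and 8 in Simba2 batch 2. The best brm peaks were 3.26-fold and 4.99-fold and lay at separate sites in the gene. Pc, brm and escl were the 3 genes with peaks in both libraries of batch 2 and in neither of batch 1, a pattern of 7.98% of all genes (2.45 by span), and no gene of the group showed the converse (2.69% of all genes). Snr1 had 2, 0, 2 and 1 peaks, Bap55 1, 0, 1 and 1, and Bap60 2 in Simba2 batch 2 alone.

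Bap111 and Chd1 were the 2 genes with peaks in both Simba2 libraries and none in Simba1 (5.78% of all genes; 1.78 by span), and no gene had the reverse (0.594% of all genes). At Chd1, which encodes a remodeller bound to active genes (2L, 2979562 to 2987723), the best Simba2 peaks were 2.74- and 3.37-fold and did not share bases, though a further Simba2 batch 2 peak of 2.74-fold overlapped the batch 1 peak. At Bap111, an HMG-domain subunit gene of the BRM complex, they were 2.46- and 2.93-fold, the first inside the upper end and next to His3.3B, the second below the lower end. The batch 2 peak belongs to a merged region just below the gene (X, 9146998 to 9148420) that also held a 2.68-fold Simba1 batch 1 peak outside the 1 kb limit. Chd1 likewise held a merged region at its upper end (2988658 to 2989203) with a Simba2 batch 2 peak and a Simba1 batch 1 peak beyond the limit. The absence of Simba1 at both genes therefore rests on where that limit was set.

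kis and Mi-2 carried 4 of the 8 regions found in all 4 lists. kis, a CHD-family remodeller gene counted with the Trithorax group in genetic screens (2L, 210735 to 250823), held 7, 4, 7 and 12 peaks. Of its 3 regions in all 4 lists, the one 18.0 kb inside the gene (228447 to 229096) was 4.58-fold in Simba1 batch 1, 2.35-fold in Simba1 batch 2, 5.22-fold in Simba2 batch 1 and 2.88-fold in Simba2 batch 2. The one at 34.99 kb (244856 to 246596) was 2.74-, 2.84-, 3.16- and 2.91-fold, the narrowest range among the 8 regions. Both had q of 0.05 or lower in each library, which held for no other region at the 38 genes. The site at 18.0 kb also lies at lncRNA:CR44221, and the site at 34.99 kb at no other gene.

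Mi-2, the ATPase gene of the NuRD complex (3L, 19882051 to 19910215), held 5, 3, 4 and 11 peaks, with best folds of 3.13, 2.95, 5.06 and 2.91. Its region in all 4 lists (19906771 to 19907457) was 1.66-fold in Simba1 batch 1, 2.95-fold in Simba1 batch 2, 3.40-fold in Simba2 batch 1 and 1.96-fold in Simba2 batch 2, and it overlaps Su(Tpl). dom, which encodes the ATPase that exchanges histone variants (2R, 21323430 to 21341847), had 2, 1, 5 and 9 peaks with best folds of 4.66, 3.30, 3.16 and 4.04. A site at its lower end was 4.66-, 2.96- and 2.42-fold in the libraries other than Simba1 batch 2, and a site 3.79 kb inside it, among snoRNA genes, was 4.10-, 3.16- and 2.97-fold. Iswi, the nucleosome-spacing ATPase gene, had 2, 0, 3 and 2 peaks, with both ends of the gene marked in those same 3 libraries.

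Position within the genes was compared by counting peak summits within 1 kb of a gene end, which takes in promoters at the ends of the span, and in the interior. Start sites were not used, so any promoter inside a span counts as interior. The gene table used gives no strand, so start and end could not be told apart. Ends held 15.2, 8.61, 13.2 and 32.5 summits per 100 kb in Simba1 (batches 1 and 2) and then Simba2 (batches 1 and 2). Interiors held 12.3, 10.9, 19.4 and 30.9, which gives ratios of end to interior of 1.23, 0.792, 0.683 and 1.05. At genes of like span the ratios were 1.20, 0.922, 1.09 and 1.21. The ratio was thus below that of like genes in 3 libraries, with the widest gap in Simba2 batch 1, and the 38 genes had no common preference for ends.

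In batch 1 the Trithorax genes had fewer summits per length at ends than the other classes, with ratios of 0.434 in Simba1 batch 1 and 0.394 in Simba2 batch 1, though on 1 and 2 end summits. In batch 2 their ratios were 0.929 and 0.979. Polycomb genes had ratios of 1.17, 0.485, 0.647 and 0.971, and remodeller genes 1.32, 1.20, 0.810 and 1.02. Of peaks that overlap an end window, rather than summits, ends held 42.3% and 27.5% of Simba1 peaks and 30.3% and 38.9% of Simba2 peaks. The means were 34.9% ± 10.5 and 34.6% ± 6.07 (SD, n = 2), a difference of -0.223 percentage points (exact two-sided permutation p = 1), with -11.9 percentage points in batch 1 and 11.5 in batch 2.

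**Figure D4:**
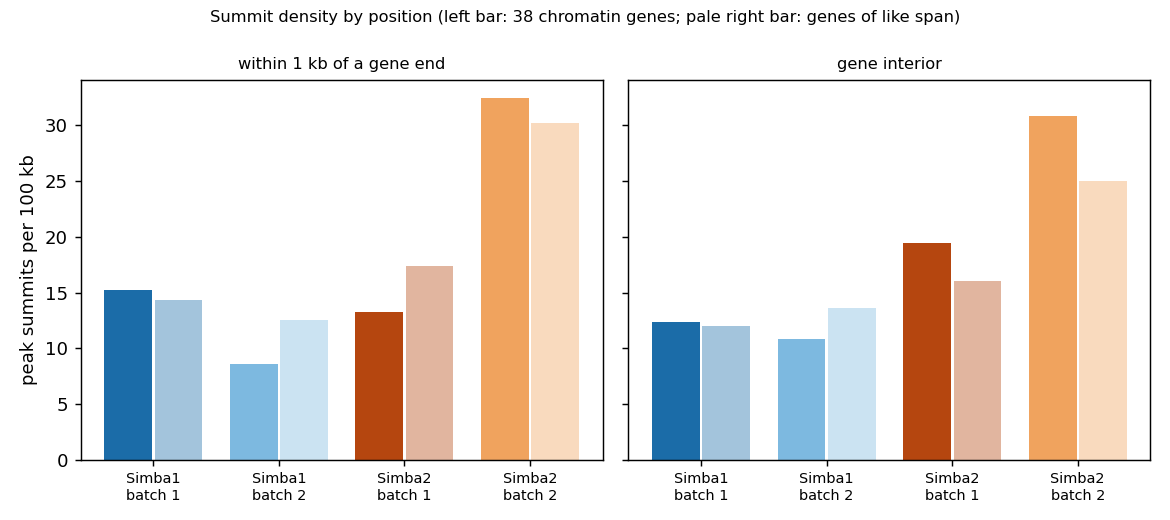
Peak summits per 100 kb within 1 kb of a gene end (left) and in the gene interior (right), by library. Full bars are the 38 chromatin genes and pale bars the genes nearest in span. In Simba2 batch 1 the chromatin genes had 13.2 at ends and 19.4 in interiors, the reverse of the order at genes of like span.

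Sharing of regions was examined after merging overlapping peaks of the 4 lists. The 38 genes held 221 merged regions, of which 121 (54.8%) were in 1 list, 49 (22.2%) in 2, 43 (19.5%) in 3 and 8 (3.62%) in all 4. Over all merged regions 4.49% were in all 4 lists and 13.1% in 3. The 8 regions lay at kis (3), E(z), Sfmbt, ash2, psq and Mi-2. Of the 43 regions in 3 lists, 37 (86.0%) lacked Simba1 batch 2, against 62.6% of the regions in 3 lists at any gene.

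Overlap was then compared for pairs of lists. Of Simba1 batch 1 peaks at these genes, 73.2% overlapped a Simba2 batch 2 peak (56.0% of such peaks at any gene) and 18.3% overlapped a Simba1 batch 2 peak (26.0% at any gene). These 2 pairs have separate Dam controls. Read from the other list, 25.5% of Simba1 batch 2 peaks at these genes overlapped a Simba1 batch 1 peak (23.2% at any gene), so the lower sharing between the Simba1 batches was seen from batch 1 and not from batch 2. Of Simba2 batch 1 peaks, 67.4% overlapped a Simba2 batch 2 peak (53.2% at any gene) and 12.4% a Simba1 batch 2 peak (24.7%). Between lists that share a Dam control, 74.6% of Simba1 batch 1 peaks overlapped a Simba2 batch 1 peak (66.7% at any gene). Likewise 62.7% of Simba1 batch 2 peaks overlapped a Simba2 batch 2 peak (45.4% at any gene). From the Simba2 side these overlaps were 59.6% in batch 1 (51.5% at any gene) and 20.4% in batch 2 (24.9%). Of Simba1 batch 2 peaks, 19.6% overlapped a Simba2 batch 1 peak (28.5% at any gene). Of Simba2 batch 2 peaks, 32.3% overlapped a Simba1 batch 1 peak (27.8%) and 35.9% a Simba2 batch 1 peak (34.1%). Simba2 batch 2 peaks covered 17.0% of the 38 genes against 12.4% of the arms, and Simba1 batch 2 peaks 4.36% against 6.58%. In batch 1 the cover was 7.49% against 6.16% for Simba1 and 9.12% against 7.88% for Simba2. The part of the amount covered in the overlaps was not tested.

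Whether the best peak of a gene lay at the same place in different libraries was compared next. Both Simba1 batches had best peaks that shared bases at 4 of 18 genes (E(z), ash2, psq and Bap170), and both Simba2 batches at 8 of 29. Within batch 1 the best Simba1 and Simba2 peaks shared bases at 13 of 26 genes, and within batch 2 at 3 of 22. Genes of like span with peaks in both lists gave 18.4% and 31.1% between batches of Simba1 and of Simba2, against 22.2% and 27.6% here. Within batches they gave 56.3% and 26.9%, against 50.0% and 13.6% here. Over all genes with peaks in both lists the shares were higher. They were 29.3% for Simba1, 44.8% for Simba2, 66.5% within batch 1 and 37.6% within batch 2. Pairs that differ in both protein and batch were counted too. Simba1 batch 1 and Simba2 batch 2 shared best peaks at 9 of 29 genes (31.0%, against 34.8% by span and 44.8% over all genes). Simba1 batch 2 and Simba2 batch 1 did so at 1 of 17 (5.88%, against 17.1% and 29.7%).

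**Figure D5:**
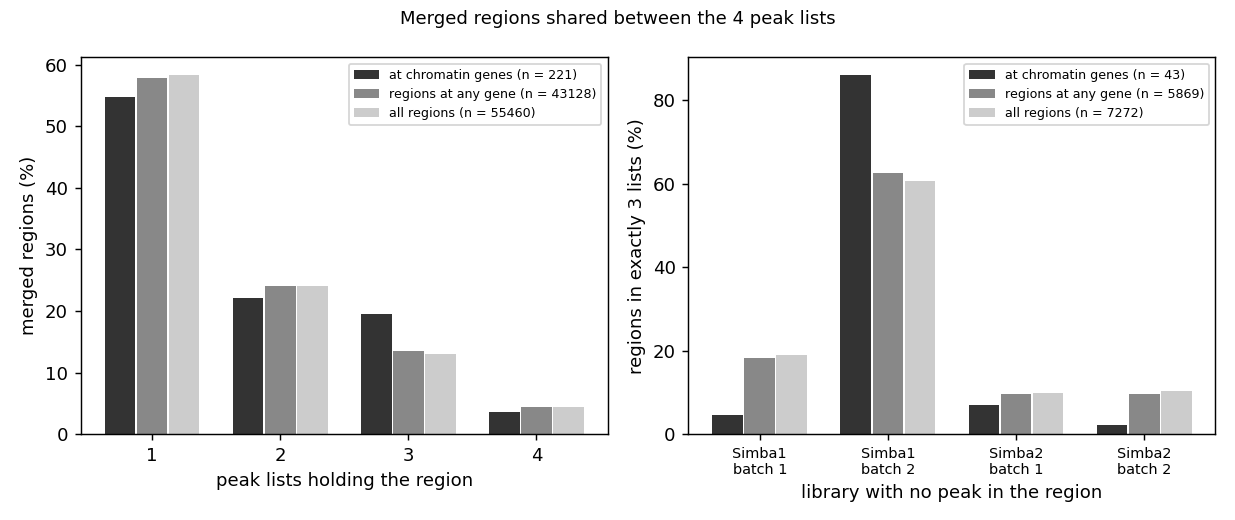
Left, percent of merged regions found in 1 to 4 of the peak lists, at the 38 chromatin genes, at any gene and over all regions. Right, the library that lacks a peak, for regions in exactly 3 lists. At the chromatin genes 86.0% of such regions lack Simba1 batch 2.

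A further 49 genes of partner proteins and other chromatin complexes were set beside the group. Peaks in both Simba1 batches were found at 24 of them (49.0%, against 48.4% of genes of like span and 28.8% of all genes). Both Simba2 batches had peaks at 31 (63.3%, against 71.3% and 51.3%), and all 4 libraries at 18 (36.7%, against 43.9% and 24.1%), so the Simba2 and 4-library shares were below those of genes of like span. At q of 0.05 or lower in each library there were 10 (11.5% of all genes), a count for which no figure by span was computed. The highest by mean percentile were tna, a Trithorax-group gene (4.84- and 3.53-fold in Simba1, 10.7- and 3.46-fold in Simba2), and Dsp1, which encodes an HMG-box protein that helps recruit Polycomb proteins (3.84- and 2.43-fold, then 4.47- and 2.72-fold). tou, simj (listed as p66), Ino80 and Kdm4B completed the 6 highest. tna at 97.8 and psq at 97.7 had nearly the same mean percentile, and both are long genes with several peaks to choose the best from.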

How the data were processed

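DNA from larval brains was profiled by DamID, and 4 deposited peak lists were used. Per the submitters' processing notes, bcl2fastq 2.19.0.316, FastQC, Bowtie2, ChIPseeker and the build dm6 were used. MACS 3.0.0 was run by the authors, per the file headers, on each fusion library and its own batch's Dam control, with batches kept apart, at a q limit of 1 and an effective genome size of 2910000000 bp, which is far above that of the fly and lowers the genome-wide background term. The deposited pileup is a coverage signal, the significance of a peak was deposited as -log10 p and -log10 q, and the deposited fold enrichment is a ratio of pileup to local background. Tags after filtering, per the file headers, are the depth behind each list.

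RefSeq's gene table (Release 6, the dm6 assembly) gave gene spans; exons, strand, start sites and sequences were not used here. All 38 symbols matched, calypso as caly by synonym. Peaks on 6 arms were assigned by overlap with the span plus 1000 bp, so a peak can belong to neighbours too. Genes of like span are the 200 others nearest in log span. Assignment and merging were tested on simulated data (Python 3.11.15, numpy 2.4.6, pandas 2.3.3). The labels give batches, which pair Simba1 with Simba2: batch deviations of peak counts correlated across 17684 genes (r = 0.581, genes not independent). Across the 38 genes alone the correlation was weaker (r = 0.230). The groups, lists and members were chosen with earlier results of these data known. The genes named in full were the 10 highest by mean percentile of the best -log10 q among those in all 4 libraries, those whose best peaks of all 4 libraries share bases, those with peaks of 1 protein in both batches and none of the other, and the 6 highest partner genes; the rest are given by their counts, and those described further (such as E(z), Pc, brm, ash1 and Utx) were chosen after their values were seen.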

Additional observations from a re-analysis of the deposited data

How the results depend on the processing

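Of 97 values under other settings, 74 kept their direction and stayed within the limits set for them. At q of 0.05 or lower, 9 genes had peaks in both Simba1 libraries and 8 in all 4 (Polycomb 2, Trithorax 1), with 2 regions in all 4 lists. At q of 0.001 or lower there were 1 gene for both Simba1 libraries, 11 for both Simba2 libraries and 1 in all 4 (Polycomb 0, Trithorax 1, remodeller 0), with 0 such regions. Equal list lengths gave 3 Trithorax genes and 3 regions in all 4 lists, and no flank gave 3 Trithorax genes. Leaving out 1 library at a time, the other 3 shared 16 to 26 genes (Polycomb 5 to 10, Trithorax 5 to 7, remodeller 6 to 9); 26 was without Simba1 batch 2. The share of peaks at gene ends, Simba2 minus Simba1, turned from -0.223 to 5.88 points at q of 0.05 or lower, 25.7 at 0.001, 1.18 with equal list lengths and 2.47 with no flank. Leaving out 1 library gave -7.62 to 7.18 points, so that difference has no stable direction. Leaving out 1 library moved Simba2 minus Simba1 to between 9.21 and 32.9 points for genes with a peak and between 5.70 and 21.6 peaks per 100 kb, and the latter was 5.90 with equal list lengths, 5.60 at q of 0.001 or lower and 9.47 at 0.05. With the batch as a replicate block, Simba2 minus Simba1 was 21.1 points for genes with a peak, 13.6 peaks per 100 kb and -0.223 points at ends (exact sign-flip p = 1, 0.5 and 1; 0.5 is the smallest 2 batches allow), and no call changed. At the depth of these lists a gene without a peak may still be marked below what was detectable.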
